A study of Mus musculus with 3 samples.

Results

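The 10 genes described here make, and respond to, prostaglandins and leukotrienes, the lipid mediators that cells form from arachidonic acid. They were taken by gene symbol as Pla2g4a, Ptgs1, Ptgs2, Ptges, Ptger2, Ptger4, Alox5, Alox5ap, Lta4h and Ltc4s, and each symbol matched 1 of the 55536 annotated genes, of which 22028 were protein-coding. The samples were 3 libraries of 1 group, numbered as biological replicates 1, 2 and 3, of bone-marrow-derived macrophages from C57BL/6J mice, that is, phagocytes differentiated in culture from marrow cells. All cells received Lipid A, the membrane anchor of lipopolysaccharide and a ligand of Toll-like receptor 4, at 100 ng/ml for 12 h, then a washout of 12 h, then Lipid A at 100 ng/ml for 40 min. Total RNA was taken from the chromatin fraction, where nascent transcripts are enriched, and was sequenced after ribosomal RNA had been removed. The RNA input was 1 µg in replicate 1, 250 ng in replicate 2 and 500 ng in replicate 3. The labels give 1 strain-level donor for all libraries, and neither sex nor age was collected. No untreated cells and no cells given Lipid A once were analysed here, so the values are levels and not inductions.

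Cytosolic phospholipase A2 releases arachidonic acid from membrane lipids. The cyclooxygenases convert it to prostaglandin H2, from which terminal synthases make prostaglandin E2, prostaglandin D2, thromboxane or prostacyclin. In the other branch, 5-lipoxygenase acts with its activating protein to make leukotriene A4, which is turned either into leukotriene B4 or into the cysteinyl leukotriene C4. Macrophages are a known source of both kinds of mediator, and Ptgs2 is a textbook target of Toll-like receptor signalling.

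Depth was 13802716, 17187524 and 16502809 expected counts in replicates 1, 2 and 3. A count of 0 allowed up to 0.217, 0.175 and 0.182 CPM in those libraries, which like the Wilson intervals given below covers counting error only. Levels between genes are compared in TPM, which divides counts by transcript length and by the library total. Differences between libraries are given in CPM, counts scaled to library totals with TMM factors. All 10 macrophage markers, such as the F4/80 gene Adgre1 with a mean of 368 TPM, were detected at a mean of at least 10 counts. The summed marker level was 1157.1, 1288.8 and 1202.8 TPM. No neutrophil marker of 10 was detected, and the summed level of that list was 0.8, 1.19 and 0.18 TPM. Of 10 mast cell markers, Kit and Hdc were detected, and Mcpt4, Mcpt8, Tpsb2, Tpsab1, Cma1 and Fcer1a had 0 counts. The summed mast cell level was 2.07, 1.07 and 1.87 TPM. Of 9 megakaryocyte and platelet markers, 5 were detected with summed levels of 35.4, 38.89 and 58.76 TPM, of which Vwf held a mean of 34.56 TPM. The eosinophil list had 1 of 5 genes detected, with summed levels of 0.74, 0.58 and 1.22 TPM. The fibroblast list had 3 of 6, with summed levels of 0.02, 1.03 and 1.78 TPM. Its detected genes Col1a1, Col1a2 and Col3a1 had 0 counts in replicate 1 and between 20 and 32 counts in replicates 2 and 3. In a second quantification, made from the reads, 2 neutrophil, 3 mast cell, 8 megakaryocyte and platelet, 3 eosinophil and 5 fibroblast markers were detected. All 10 macrophage markers were detected there too. Whether cells of these types contributed to the levels of the 10 genes was not tested. In bulk RNA, fewer cells that express a gene and less RNA per cell cannot be told apart.

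The promoters of the cyclooxygenase pair are shown because these paralogues carry out the same reaction at different levels in these libraries. The windows run from 250 bases before to 30 bases after the start site, 280 bases in all, from RefSeq on GRCm38.p6. Capitals mark matches, on either strand, to any of 7 short motifs. Ptgs2 lies at chr1:150099781-150100060 on the plus strand, and Ptgs1 at chr2:36230176-36230455 on the plus strand.
Ptgs2: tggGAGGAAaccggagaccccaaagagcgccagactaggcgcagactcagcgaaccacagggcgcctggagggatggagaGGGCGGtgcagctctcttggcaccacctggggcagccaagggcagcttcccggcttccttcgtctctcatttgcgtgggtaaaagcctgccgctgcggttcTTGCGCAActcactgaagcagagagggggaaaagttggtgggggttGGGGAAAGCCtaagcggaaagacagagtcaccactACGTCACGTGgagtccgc
Ptgs1: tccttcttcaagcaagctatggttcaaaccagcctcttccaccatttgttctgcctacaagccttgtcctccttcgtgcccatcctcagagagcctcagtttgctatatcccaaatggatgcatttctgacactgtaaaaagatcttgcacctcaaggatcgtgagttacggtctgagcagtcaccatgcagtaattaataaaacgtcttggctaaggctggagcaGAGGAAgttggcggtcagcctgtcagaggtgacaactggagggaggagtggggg
The Ptgs2 window held 6 matches. They were the NF-kB-like motif (GGG, any 5 bases, CC) from base -23, the C/EBP-like TTGCNNAA from -69, the CRE-like ACGTCA from 13, the E-box CACGTG from 17, which overlaps the CRE-like match, the Sp1-like GGGCGG from -170 and the PU.1-like GAGGAA from -247. The Ptgs1 window held 1 match, the PU.1-like motif from -24. Among all 32851 windows of this length, 48.88% held the NF-kB-like, 10.36% the C/EBP-like, 7.257% the CRE-like, 6.794% the E-box, 34.69% the Sp1-like and 25.98% the PU.1-like motif. The TATA-like TATAAA stood in 13.1% of windows and in neither of the printed ones. Across the 9 members with a RefSeq window, 5 held the NF-kB-like motif, 6 the PU.1-like and 4 the Sp1-like motif, while the C/EBP-like, CRE-like and E-box letters stood only in the Ptgs2 window. Ptger4 held 3 NF-kB-like and 4 Sp1-like matches, and Ptger2 held none of the 7. In Ptger4 the NF-kB-like matches from -189 and -188 overlap, as do the Sp1-like matches from -148 and -143. The NF-kB-like match from -104 overlaps the Sp1-like match from -95, so these are not all separate places. GC content was 61.43% for Ptgs2, 49.64% for Ptgs1, 66.79% for Ptger4 and 37.86% for Ptger2, against a median of 52.5% over all windows. A match is a description of the letters and not of binding. Alox5ap was the member without a window in this table.

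Of the 10 genes, 9 reached a mean of at least 10 expected counts, and Ltc4s did not. The same minimum was reached by 49.7% of protein-coding genes. Ordered by mean TPM, the genes ran Ptgs2, Pla2g4a, Lta4h, Ptger4, Ptges, Ptgs1, Alox5ap, Ptger2, Alox5 and Ltc4s. Ptgs2 at the top stood at percentile 89.92 of protein-coding genes and Ltc4s at the bottom at percentile 50.9, so that 0 of the 10 were in the top decile. Neighbours in this order mostly could not be separated, since the ranges of 7 of the 9 neighbouring pairs overlapped and only 3 pairs kept their order in all 3 libraries. The ranges did not overlap between Ptger4 and Ptges, whose means differed 3.17-fold, or between Ptger2 and Alox5, whose means differed 4.32-fold. With 3 libraries the smallest two-sided exact sign permutation p is 0.25, so no p is given for the order.

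**Figure D1:**
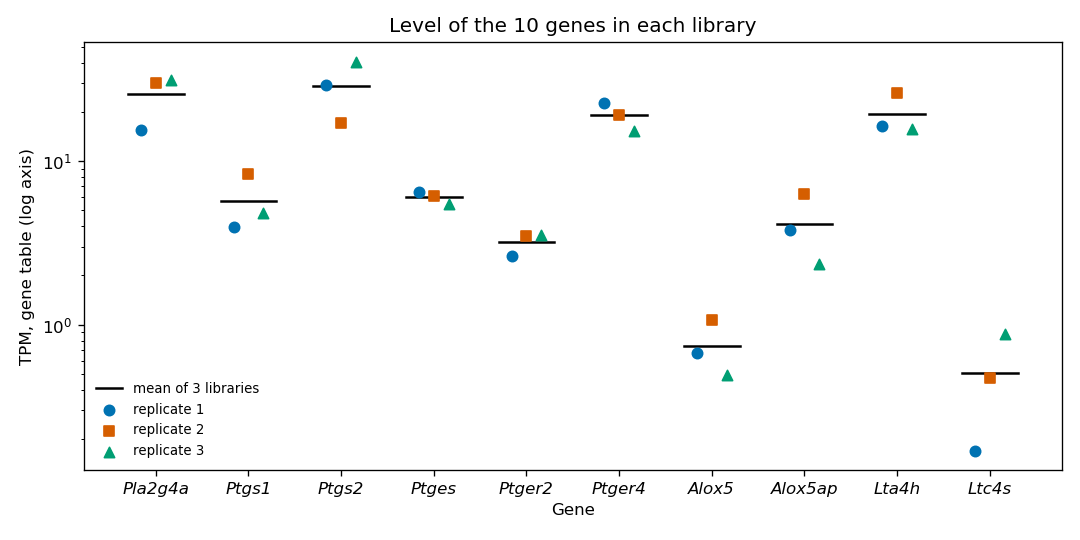
Level of each gene in TPM on a log axis, ordered by role along the horizontal axis, with 1 point for each of replicates 1, 2 and 3 and a bar at their mean. Ptgs2, Pla2g4a, Lta4h and Ptger4 sit between 15.2 and 40.4 TPM in every library, and Alox5 and Ltc4s sit near or under 1 TPM.

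Pla2g4a, which encodes the cytosolic phospholipase A2 that releases arachidonic acid, lies on chromosome 1 from 149829618 to 149961290 on the minus strand. It had 503, 529 and 522 expected counts in replicates 1, 2 and 3. Its level was 15.5, 29.9 and 31.3 TPM, with a mean of 25.6 ± 8.73 TPM (SD, n = 3). Counts were nearly level across the libraries while TPM in replicate 1 was the lowest of the 3. The difference lay in short transcripts, because TPM weights a count by the inverse of length. The 2 annotated Pla2g4a transcripts under 350 bases held 13.63 of 529 counts in replicate 2 but 15.74 of its 29.9 TPM, which is 52.6%. Their share of the TPM was 3.42% in replicate 1 and 15.9% in replicate 3. The 613-base Pla2g4a-206 held 70.88 counts and 14.73 TPM in replicate 3, against 16.81 and 9.69 counts in replicates 1 and 2. Over transcripts of at least 500 bases the level was 15, 14.16 and 26.32 TPM. The mean was then 18.49 TPM, under the 19.36 TPM of Lta4h and the 19.05 TPM of Ptger4 by the same measure. In CPM the gene had 36.7, 28.9 and 33.5, a 1.27-fold range.

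The start sites of Pla2g4a and Ptgs2 are 138741 bases apart on chromosome 1, and the genes are read in opposite directions, away from each other. Ptgs2os, a processed transcript on the opposite strand that begins 68 bases before the Ptgs2 start, had 11, 5 and 9 counts, which is 0.44, 0.23 and 0.42 TPM. Ptgs2os2, a long intergenic RNA downstream of Ptgs2, had 25, 20 and 51 counts and 1.16, 0.94 and 2.56 TPM. Both were lowest in replicate 2, as Ptgs2 was, and Ptgs2os did not reach a mean of 10 counts.

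Ptgs2 encodes the inducible cyclooxygenase and spans bases 150100031 to 150108227 of chromosome 1 on the plus strand. It had 1726, 1029 and 2266 expected counts, the most of the 10 genes in each library. Its level was 29.1, 17.2 and 40.4 TPM, with a mean of 28.9 ± 11.6 TPM (SD, n = 3). Replicate 2 was the low library and replicate 3 the high one, and the CPM of 125.9, 56.2 and 145.2 gave a 2.58-fold range, the widest of the 9 genes averaging at least 10 counts. Replicate 2 was also the library with the lowest RNA input. The platelet and endothelial gene Vwf, with 28.69, 24.65 and 50.33 TPM, was likewise lowest in replicate 2 and highest in replicate 3. The part of RNA input or of other cells in the Ptgs2 spread was not tested. All counts were assigned to the full-length Ptgs2-201 of 4453 bases, and the 358-base Ptgs2-202 had 0 counts in the alignment-based transcript table. The table made from the reads gave Ptgs2-202 95.89, 34.9 and 91.07 counts. At its short length these came to 30.93, 8.352 and 24.67 TPM, beside 32.2, 16.28 and 36.93 TPM for Ptgs2-201.

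Ptgs1, the paralogue usually described as constitutive, lies on chromosome 2 from 36230426 to 36252272 on the plus strand. It had 76, 158 and 101 counts and 3.96, 8.37 and 4.81 TPM, with a mean of 5.71 ± 2.34 TPM (SD, n = 3). Replicate 2 held the highest value, where Ptgs2 held its lowest. The ratio of Ptgs2 to Ptgs1 in TPM was therefore 7.36, 2.05 and 8.40. Ptgs2 was above Ptgs1 in 3 of 3 libraries, and in the table made from the reads the ratio was 14.4, 3.03 and 12.3. The protein-coding Ptgs1-201 had 0, 73.62 and 53.13 counts and the processed transcript Ptgs1-204, of similar length, had 62.43, 59.64 and 37.3. The upper bound that the deposited table gives for Ptgs1-201 in replicate 1 was 0.955 TPM, so a level up to that value is within the uncertainty of the split. Its levels in replicates 2 and 3 were 1.98 and 1.52 TPM. The table made from the reads gave it 0, 78.56 and 73.47 counts. The opposite-strand Gm43621 shares 148 exonic bases with Ptgs1 and had 4, 12 and 1 counts.

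Ptges encodes the inducible microsomal prostaglandin E synthase, which turns prostaglandin H2 into prostaglandin E2, and lies on chromosome 2 from 30889471 to 30929863 on the minus strand. It had 310, 196 and 247 counts. Its level was 6.46, 6.09 and 5.45 TPM, with a mean of 6.00 ± 0.511 TPM (SD, n = 3). The narrow TPM range hides a wider one in CPM, 22.6, 10.7 and 15.8, with replicate 2 lowest as for Ptgs2. In replicate 2 the processed transcripts Ptges-201 and Ptges-203 of 703 and 446 bases held 10.49 and 1.66 counts, which came to 1.67 and 0.62 TPM, and both had 0 counts in the other libraries. The protein-coding Ptges-202 held a mean of 97.9% of the counts.

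The receptors for prostaglandin E2 that raise cyclic AMP, EP2 and EP4, are encoded by Ptger2 and Ptger4. Ptger4, on chromosome 15 from 5206661 to 5244187 on the minus strand, had 975.2, 839.7 and 620.1 counts and 22.7, 19.2 and 15.2 TPM, with a mean of 19.1 ± 3.72 TPM (SD, n = 3). Ptger2, on chromosome 14 from 44988195 to 45003820 on the plus strand, had 98, 134 and 125 counts and 2.63, 3.50 and 3.51 TPM, with a mean of 3.21 ± 0.505 TPM (SD, n = 3). Ptger4 was above Ptger2 in every library, with ratios of 8.62, 5.50 and 4.34 and no overlap of their ranges. Replicate 1 had the highest Ptger4 and the lowest Ptger2 TPM. Most Ptger4 counts went to 2 protein-coding transcripts that differ little in length, Ptger4-201 with 631.2, 519.5 and 360.6 counts and Ptger4-202 with 325, 255.1 and 233.3. The table made from the reads put them in the other order, with 512.7, 467.6 and 276.9 counts for Ptger4-201 and 650.5, 623.2 and 545.9 for Ptger4-202. Which of these transcripts was the more abundant thus depended on the quantification. Ptger4 shares 82 exonic bases with the opposite-strand Ttc33, which had 42, 75 and 55 counts, and 1015 bases with the pseudogene Gm15937, which had 9.81, 14.26 and 2.93. Strand use in counting is not given in the sources used here, so reads over such stretches cannot be assigned with certainty.

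Alox5 encodes 5-lipoxygenase, the enzyme that opens the leukotriene branch, and lies on chromosome 6 from 116410077 to 116461178 on the minus strand. It had 8, 18 and 8 counts and 0.67, 1.07 and 0.49 TPM, with a mean of 0.743 ± 0.297 TPM (SD, n = 3). The Wilson 95% intervals of these counts, scaled by the library total, ran from 0.294 to 1.14, from 0.663 to 1.66 and from 0.246 to 0.957 CPM. They overlapped in all 3 libraries. Alox5ap encodes the membrane protein that presents arachidonic acid to 5-lipoxygenase and lies on chromosome 5 from 149264767 to 149288153 on the plus strand. It had 27, 73 and 30 counts and 3.78, 6.32 and 2.36 TPM, with a mean of 4.15 ± 2.01 TPM (SD, n = 3). Replicate 2 was the high library for both genes, and the ratio of Alox5ap to Alox5 in TPM was 5.64, 5.91 and 4.82. Alox5ap shares 189 exonic bases with the opposite-strand antisense gene Gm19719, whose counts of 28, 155 and 28 were also highest in replicate 2. Whether reads of Gm19719 entered the Alox5ap counts was not tested.

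Lta4h and Ltc4s encode enzymes at the fork of the leukotriene branch. Lta4h, which hydrolyses leukotriene A4 to leukotriene B4, lies on chromosome 10 from 93453411 to 93484875 on the plus strand and had 247, 374 and 231 counts. Its level was 16.3, 26.1 and 15.7 TPM, with a mean of 19.4 ± 5.82 TPM (SD, n = 3). Of this, the protein-coding Lta4h-201 held 7.19, 10.33 and 7.25 TPM. Ltc4s, which joins leukotriene A4 to glutathione, lies on chromosome 11 from 50236461 to 50238616 on the minus strand and had 1, 3 and 5 counts. That is 0.17, 0.47 and 0.88 TPM, with a mean of 0.507 ± 0.356 TPM (SD, n = 3). Lta4h was above Ltc4s in every library, and the TPM ratios of 95.8, 55.5 and 17.9 rest on those few Ltc4s counts. The Wilson 95% interval of the single count in replicate 1 ran from 0.0128 to 0.410 CPM and that of the 5 counts in replicate 3 from 0.129 to 0.709 CPM, so a difference of Ltc4s between libraries was not detectable at this depth. Ltc4s shares 268 exonic bases with the antisense gene Gm26542, which had 54, 81 and 89 counts, many more than Ltc4s itself.

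The spread between libraries was set against counting noise with a chi-square test over all 14330 genes averaging at least 10 counts, adjusted by Benjamini-Hochberg. Of the 9 genes of the pathway tested, 7 passed at an adjusted p under 0.05, against 55.2% of all genes tested. The share was not tested against that background and is not read as particular to these genes. Without replicate 2, 3 of the genes and 27.9% of all genes passed. The labels do not say that the libraries came from separate animals or cultures, so the test measures the spread between these samples, which may be technical. The adjusted chi-square p, which falls with the number of counts as well as with the spread, was 6.07e-153 for Ptgs2, 1.56e-33 for Ptger4 and 4.76e-15 for Ptges. It was 0.000545 for Alox5ap, 0.00149 for Pla2g4a, 0.00157 for Lta4h and 0.00682 for Ptgs1. It was 0.711 for Ptger2 and 0.286 for Alox5, whose libraries could not be separated from counting noise.

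The 7 genes did not move as 1 block. By CPM, 3 of them were highest in replicate 1 (Ptger4, Ptges and Pla2g4a), 3 in replicate 2 (Ptgs1, Alox5ap and Lta4h) and 1 in replicate 3 (Ptgs2). Over all genes tested, 16.5%, 22.3% and 16.4% both passed the test and were highest in replicates 1, 2 and 3, which is 29.9%, 40.4% and 29.7% of the genes that passed. Replicate 2 was the lowest library for Ptgs2, Ptges and Pla2g4a. Among the 7913 genes of the whole table that passed, replicate 2 was also the lowest library for 41.8%. The biological coefficient of variation that edgeR estimates beyond counting noise was 0.287 for Ptgs2, against 0.191 on the trend for genes of its abundance. These are tagwise estimates, which are drawn toward that trend and are not the spread of 1 gene alone. The coefficient was 0.308 for Alox5 and 0.306 for Alox5ap, against trends of 0.327 and 0.273. For Ptges it was 0.248 and for Ptger4 0.222, against trends of 0.198 and 0.189. For Pla2g4a it was 0.179 against a trend of 0.193. Ptgs1, Ptger2 and Lta4h were also under their trends, with 0.230, 0.203 and 0.185 against 0.239, 0.235 and 0.197. Over all genes tested the edgeR median was 0.221, with quartiles of 0.184 and 0.271. By DESeq2 the coefficient was 0.521 for Alox5, and the other genes ran from 0.182 for Pla2g4a to 0.348 for Alox5ap.

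**Figure D2:**
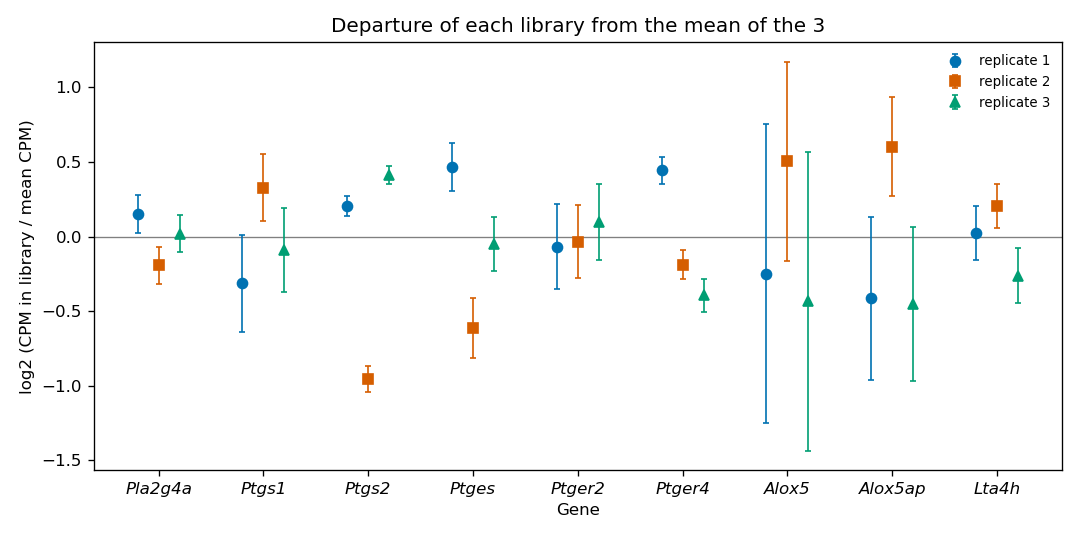
Departure of each library from the mean CPM of the 3, on a log2 axis, for the 9 genes averaging at least 10 counts, with bars for approximate 95% counting error. Replicate 2 lies under the other libraries for Ptgs2 and Ptges with bars that do not touch theirs, and above them for Ptgs1, Alox5ap and Lta4h, while the bars of Ptger2 and Alox5 overlap in all libraries.

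Transcripts annotated as retained introns took a large share of the counts of several of these genes. Chromatin RNA is known to hold transcripts that are not yet fully spliced. Among the 6710 detected protein-coding genes annotated with both retained-intron and protein-coding transcripts, the median share was 25.4%, with quartiles of 9.27% and 50.2%. The share of Alox5 was 100%, 92.7% and 100% of its counts in replicates 1, 2 and 3. These summed to 32.7 retained-intron counts, against 1.31 counts in protein-coding Alox5 transcripts. The pooled share lay at percentile 98.99 of those genes. The table made from the reads gave a mean share of 81.8%. The level printed above for Alox5 is thus almost wholly that of Alox5-206, with 6.81, 8.47 and 3.68 counts, and Alox5-204, with 1.19, 8.23 and 4.32.

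The share of Ptger2 was 71.2%, 64.7% and 66.6%, with a mean of 67.5 ± 3.35% (SD, n = 3), at percentile 87.3. It came from Ptger2-202, a single-exon transcript that runs on for 1509 bases into the only intron of the gene. Pla2g4a-204, which holds 3178 bases of the third intron, took 210.5, 279.5 and 244.5 counts, close to the 274.7, 226.2 and 195.1 of the full-length coding Pla2g4a-201. That made 41.8%, 52.8% and 46.8% of the Pla2g4a counts. Lta4h had a mean of 26.7 ± 2.59% (SD, n = 3) over 5 such transcripts, and Ptgs1 a mean of 9.78 ± 4.30% (SD, n = 3) over 2. By counts both lay nearer to the median of all such genes or under it, at percentiles 52.01 and 25.31. By TPM, which weights short transcripts more, the mean retained-intron share was 55.06% for Lta4h and 31.05% for Ptgs1. For Pla2g4a it was 22.88% by TPM, under its share by counts. Ptgs2, Ptges, Ptger4 and Alox5ap have no transcript annotated this way, so their share is fixed at 0 and unspliced reads of theirs would not be counted under this heading.

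The boundaries at which these transcripts run on into an intron are shown because their intron bases are letters that a spliced transcript lacks. Each has 20 bases of exon in capitals and 20 bases of intron in lower case, 5′ to 3′ on the strand of the gene, from mm10. They lie at chr6:116413422-116413461 on the minus strand for intron 11 of Alox5, held whole by Alox5-204, and at chr14:44989788-44989827 on the plus strand for intron 1 of Ptger2. The others lie at chr1:149922035-149922074 on the minus strand for intron 3 of Pla2g4a and at chr10:93473024-93473063 on the plus strand for intron 12 of Lta4h, held in part by Lta4h-206.
Alox5 intron 11: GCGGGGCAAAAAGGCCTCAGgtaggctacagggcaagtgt
Ptger2 intron 1: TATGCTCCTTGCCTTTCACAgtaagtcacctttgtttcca
Pla2g4a intron 3: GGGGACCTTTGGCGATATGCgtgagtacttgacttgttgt
Lta4h intron 12: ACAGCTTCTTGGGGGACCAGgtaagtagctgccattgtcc
Each intron opens with gt. All 4 boundaries lie in the coding sequence. Alox5-204 also holds introns 9 and 10, of 606 and 174 bases, whole.

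**Figure D3:**
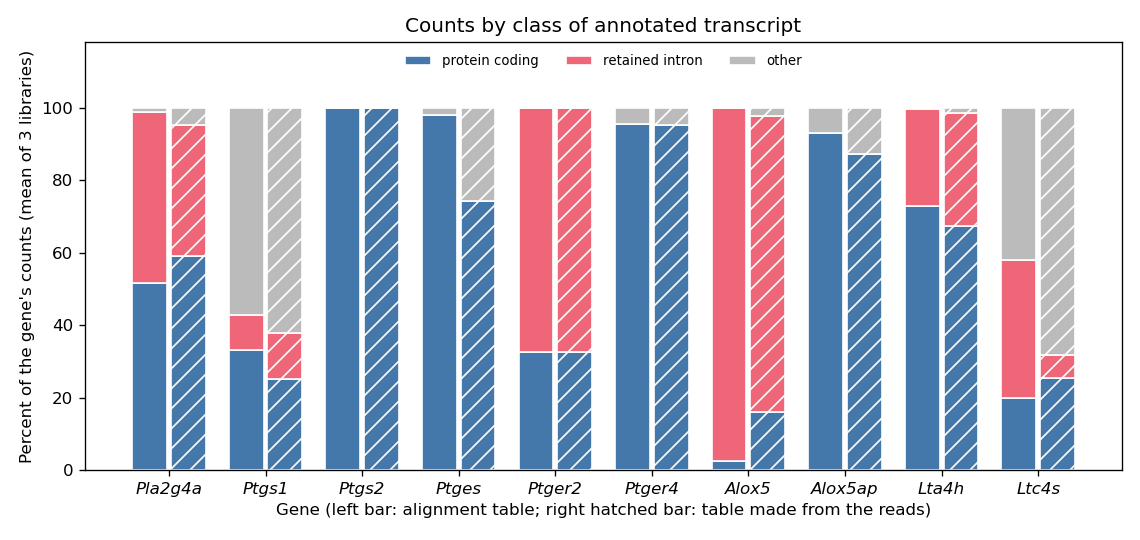
Percent of each gene's counts in protein-coding, retained-intron and other annotated transcripts, as stacked bars of the mean over 3 libraries, with the alignment-based transcript table on the left and the table made from the reads on the right of each pair. The retained-intron share was 67.5% and 67.3% for Ptger2 and 97.6% and 81.8% for Alox5 in these tables, and the bars of Ltc4s rest on at most 5 counts in any library of the alignment-based table.

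The second quantification, made directly from the reads, gave 21006413, 30933271 and 28138803 counts in annotated genes. Its mean was higher for Ptgs2, at 49.8 TPM, and for Pla2g4a, at 35.7 TPM. For Ptgs2 the rise lay in the 358-base Ptgs2-202. The full-length Ptgs2-201 had 32.2, 16.28 and 36.93 TPM there, near the 29.1, 17.2 and 40.4 TPM of the gene table. The largest relative move was that of Ptges, whose 20.9 TPM was 3.49 times its gene-table value. There the 703-base Ptges-201 took 8.441, 4.201 and 4.311 TPM and the 446-base Ptges-203 5.91, 4.816 and 5.889 TPM. The 543-base Ptges-204 took 2.109, 5.55 and 6.634 TPM. The protein-coding Ptges-202 held a mean of 74.3% of the counts but 23.5% of the TPM. Ltc4s followed at 1.19 TPM, 2.34 times its gene-table value. Lta4h, at 20.9 TPM, Ptger4, at 16.5 TPM, and Ptgs1, at 5.85 TPM, moved by less than the spread between their libraries. By mean TPM, Ptgs2 remained first and Pla2g4a second, and Alox5 stood last. The second place of Pla2g4a includes 17.15, 13.25 and 10.75 TPM of the 247-base Pla2g4a-203. Ptgs2 was again lowest in replicate 2, with 63.1, 24.6 and 61.6 TPM. In that library it stood under Pla2g4a, at 33.1 TPM, and Lta4h, at 27.9 TPM. In the gene table its 17.2 TPM in replicate 2 was under Pla2g4a at 29.9, Lta4h at 26.1 and Ptger4 at 19.2 TPM.

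**Figure D4:**
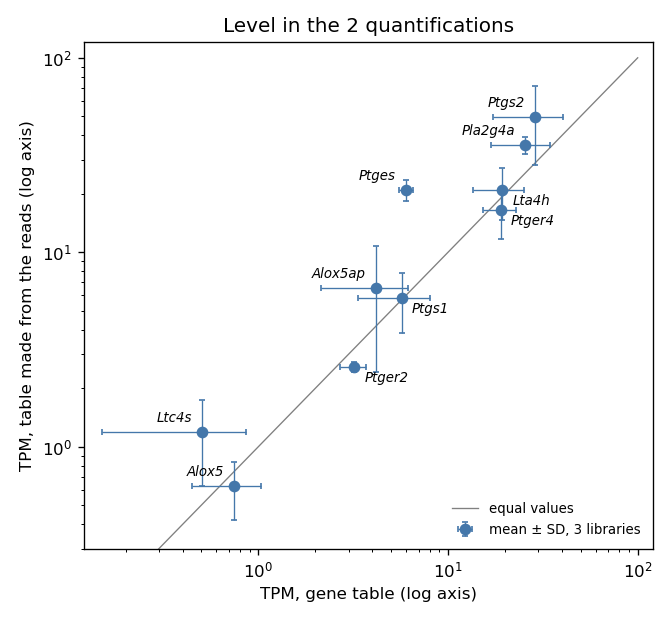
Mean level in the gene table on the horizontal axis against the table made from the reads on the vertical axis, both in TPM on log axes, with bars of 1 SD over 3 libraries and a line of equal values. Ptges lies farthest above the line, at 6.00 and 20.9 TPM, and Ptgs2 is the highest gene on both axes.

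The other genes of the pathways were described from 9 lists, which held 75 genes. Of these, 41 were detected in the gene table, and 23 of the 41 passed the variation test, against 55.2% of all genes tested. The table made from the reads detected more in most lists. It had 16 in place of 11 for phospholipases and release, and 11 in place of 8 for activation and re-esterification. For the other terminal prostanoid synthases it had 6, as in the gene table. Among 18 phospholipase and arachidonate release genes 11 were detected, and the highest were Daglb, a diacylglycerol lipase, with 8.26 ± 2.01 TPM, Pla2g7, the platelet-activating factor acetylhydrolase, with 7.49 ± 3.07 TPM, and Pla2g6, a calcium-independent phospholipase, with 6.13 ± 0.658 TPM (SD, n = 3 each). All 3 were under the 25.6 TPM of Pla2g4a. Pla2g4e and Pla2g2f had 0 counts, though Pla2g4e had a mean of 1.8 TPM in the table made from the reads. Daglb shares 2309 exonic bases with Rac1 and cannot be counted apart with certainty.

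The phospholipase list, which leaves out Pla2g4a, had a median of 1.12 TPM. Genes listed for loading arachidonic acid back into lipids had a median of 9.08 TPM, but these medians do not compare release with reloading. Of 12, 8 were detected, led by the acyl-CoA synthetase Acsl1 with 105.6, 46.39 and 97.79 TPM in replicates 1, 2 and 3. Like Ptgs2, Acsl1 was lowest in replicate 2. The lysophospholipid acyltransferase Lpcat2 had 44.0 ± 6.14 TPM and the arachidonate-preferring Acsl4 28.1 ± 2.09 TPM (SD, n = 3 each), while Acsl6 and Mboat2 had 0 counts. Acsl1 and Lpcat2, like Pla2g7 above and Tbxas1, Ptgr2, Ptgdr2 and Dpep2 below, share exonic bases with an opposite-strand gene. For Acsl1 these are 1039 bases of Gm45244, which had 2174.2, 906.5 and 1849.5 counts, also lowest in replicate 2.

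Among the other terminal prostanoid synthases 6 of 9 were detected, and 2 of them stood far above Ptges. Hpgds, the hematopoietic prostaglandin D synthase, had 206 ± 53.2 TPM, and the thromboxane synthase Tbxas1 had 103 ± 12.4 TPM (SD, n = 3 each). Ptges3, the cytosolic prostaglandin E synthase and co-chaperone, had 8.73 ± 2.16 TPM (SD, n = 3), and the lipocalin-type Ptgds and the prostacyclin synthase Ptgis had 0 counts. In transport and breakdown, 3 of 5 genes were detected. The exporter Abcc4 had 12.2 ± 0.803 TPM, and the reductases Ptgr2 and Ptgr1 had 6.65 ± 2.99 and 1.08 ± 0.373 TPM (SD, n = 3 each). Hpgd, which inactivates prostaglandin E2, had 0 counts.

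Of 7 other prostanoid receptors, 2 were detected, and 4 in the table made from the reads. Of the 2, 1 was Ptgir, the prostacyclin receptor. Ptgir had 1.49 ± 0.381 TPM (SD, n = 3) and Ptgdr2 a mean of 0.253 TPM, and Ptgdr and Ptgfr had 0 counts.

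In the leukotriene branch, 2 of 8 other lipoxygenases and epoxide hydrolases were detected, against 4 in the table made from the reads. The 2 in the gene table were Ephx1 with a mean of 0.77 TPM and Alox12 with 0.33 TPM, while Aloxe3 had a mean of 0.0467 TPM and Alox8 and Alox12b had 0 counts. In the table made from the reads Alox12 had a mean of 2.22 TPM, Aloxe3 3.04 TPM and Alox8 0.886 TPM. Of 9 genes for conjugation, export and breakdown 6 were detected, led by the leukotriene C4 exporter Abcc1 with 36.9 ± 0.915 TPM and the dipeptidase Dpep2 with 25.7 ± 4.31 TPM (SD, n = 3 each). Mgst1 had 2.50 ± 0.805 TPM (SD, n = 3), and Ggt1 and Dpep1 had 0 counts. Abcc1 was thus above Ltc4s, a synthase of the leukotriene it carries, in every library. Of 5 receptors, the cysteinyl leukotriene receptors Cysltr2 and Cysltr1 were detected with 5.35 ± 0.970 and 1.23 ± 0.542 TPM (SD, n = 3 each), Ltb4r2 had a mean of 0.0667 TPM and Oxgr1 had 0 counts.

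**Figure D5:**
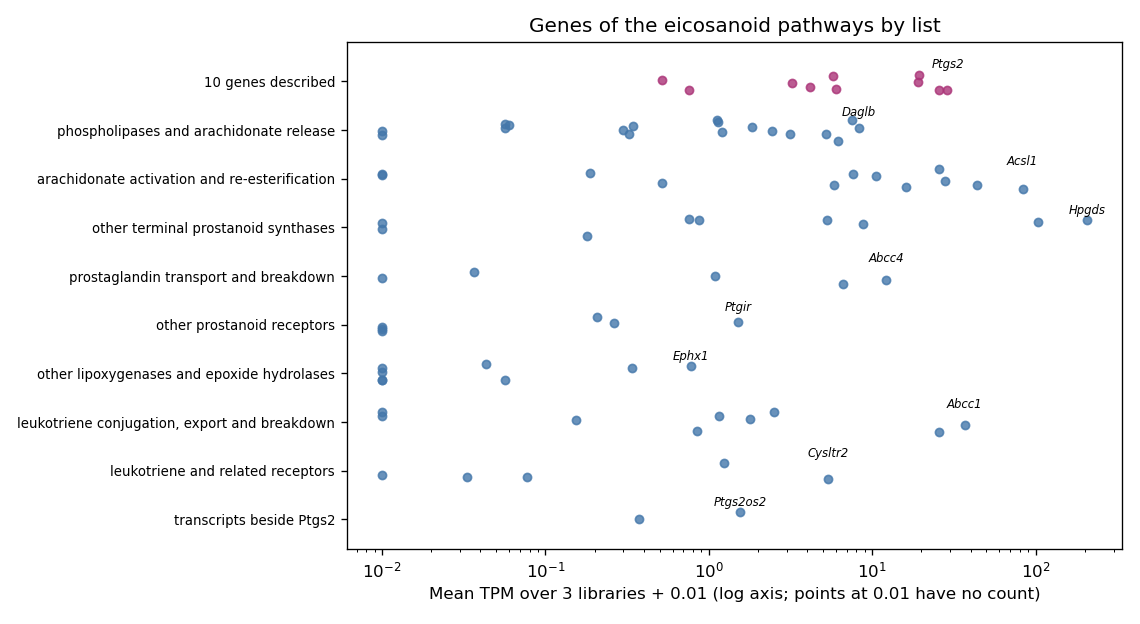
Mean TPM over 3 libraries plus 0.01, on a log axis, for the 10 genes described in the top row and for the genes of 9 pathway lists in the other rows, with 1 point per gene except Ptger1, which is not drawn, and the highest gene drawn in each row named. Hpgds at 206 TPM is the highest point, Ptgs2 at 28.9 TPM leads the top row, and points at the left edge had 0 counts.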

How the data were processed

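Total RNA-seq of the chromatin fraction of 3 macrophage libraries of 1 group was used. The authors deposited gene and transcript tables laid out as RSEM writes them, on mm10 with GENCODE M21, which hold TPM and expected counts. They also deposited transcript tables made from the reads, laid out as kallisto writes them, with TPM and estimated counts. Per the file headers, an expected count is a model's estimate and can be fractional, and TPM in the deposited tables has the same sum in each library. Programs, aligner and strand setting were not given in the sources used here.

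Members, pathway lists, marker lists and tests were chosen with earlier results of these data known. Besides the 10, the rule named the 3 genes of each pathway list with the highest mean TPM and up to 2 with 0 counts in list order; the level of Ptger1 and 1 marker's count are not reported here. Library sizes were the summed expected counts of annotated genes, 13802716, 17187524 and 16502809, so the smallest library limits precision most. Small structural RNA genes took 61.04%, 51.68% and 52.05% of TPM, which lowers the TPM of other genes. Counts were rounded, scaled with TMM factors and tested per gene against Poisson sampling by a chi-square test with Benjamini-Hochberg adjustment at 0.05, over genes averaging at least 10 counts. Dispersion came from edgeR 4.0.16 with an intercept only, and DESeq2 1.42.0 served as an alternative, in R 4.3.3. Other steps used Python 3.11.15, pandas 2.3.3 and SciPy 1.17.1. Intervals are Wilson 95% intervals. Promoter windows were RefSeq's on GRCm38.p6. No contrast could be fitted with 1 group. Alternatives were the table made from the reads, TPM rescaled over protein-coding genes, CPM, other minimum counts, other scalings, DESeq2 dispersions and leaving out each library. TPM over transcripts of at least 500 bases was added after the data were seen.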

Additional observations from a re-analysis of the deposited data

How the results depend on the processing

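No paired analysis was possible because the series has 1 group. The number of the 10 genes detected was 9, and was 10 in the table made from the reads, 8 at a minimum mean of 20 counts and 8 to 9 with a library left out. The 7 genes past the variation test were also 7 under the other scalings, without a filter and in the table made from the reads, and were 3 to 6 with a library left out, 3 of them without replicate 2. The share of all genes past the test was 55.2%, and was 32.5% without a filter and 27.9% to 43.4% with a library left out, lowest without replicate 2. Of the 10 ranks by mean TPM, 3 were the same in the table made from the reads, 4 by CPM, and 6 to 10 with a library left out. Of the 10 levels, the table made from the reads moved 6 beyond the spread between libraries. Rescaling over protein-coding genes and CPM change the unit, so their values are no check of the levels. Leaving out a library moved none of the 10 by more than that spread, but the Ltc4s level of 0.507 TPM was 0.32 TPM without replicate 3. In the table made from the reads, the genes detected were 4 in place of 2 for the other prostanoid receptors. The same numbers held for the other lipoxygenases and epoxide hydrolases, and 2 in place of 1 were detected beside Ptgs2. Phospholipases and release had 16 in place of 11, and activation and re-esterification 11 in place of 8. Prostaglandin transport and breakdown had 4 in place of 3, and leukotriene and related receptors 3 in place of 2. The other terminal prostanoid synthases had 6 in both tables, as did leukotriene conjugation, export and breakdown. The causes were not tested. Depth limits Ltc4s and Alox5, whose libraries held at most 18 counts.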
